A study of Homo sapiens with 21 samples.

Results

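Aggregates of AU565 cells that had received trastuzumab before they were formed and again afterwards were compared with AU565 monolayers that had received the earlier dose alone. The comparison holds 6 of the series' 21 RNA-seq libraries, 3 per group, chosen by their labels, and covers all 15969 genes that passed the filter on low counts. AU565 is an established human line of breast cancer cells in which the ERBB2 locus is amplified, and trastuzumab is an antibody against HER2, the receptor that ERBB2 encodes. The primed+treated aggregates were exposed to trastuzumab at 20 µg/ml for 24 h as a monolayer, kept for 96 h in liquid overlay with 5% matrigel, and then given trastuzumab at 50 µg/ml for 24 h. The primed monolayers had the same first dose of 20 µg/ml for 24 h and then 96 h of further incubation as a monolayer. All cells are labelled wild type and were grown in RPMI with serum. The groups differ in culture form, in the later dose and in 24 h of culture, and the parts that these play in any difference cannot be told apart. For a second contrast of aggregates with monolayers that shares no library with the first, untreated aggregates (96 h in liquid overlay with 5% matrigel) were set against untreated monolayers, 3 libraries each. The labels give no incubation time for untreated monolayers, so this pair may differ from the first in the time its monolayers were kept, as well as in the earlier and the later dose. Levels of some genes are also given in treated aggregates (96 h in liquid overlay with 5% matrigel, then 50 µg/ml for 24 h, with no earlier dose), primed aggregates (20 µg/ml for 24 h, then 96 h in liquid overlay with 5% matrigel) and monolayers dosed at 20 µg/ml for 24 h. Separate cultures are not stated for replicates, so p-values measure the spread between these libraries, which may be technical.

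HER2 has no known ligand and signals mainly by pairing with HER3 or EGFR, which feeds the MAPK and PI3K pathways and through them cyclin D, E2F and the entry into DNA replication. Cells inside an aggregate lie farther from oxygen and nutrients than cells in a monolayer. Low oxygen stabilises HIF1A and HIF2A, which bind hypoxia response elements and raise genes of glycolysis, pH control and blood vessel growth. Luminal breast cells also secrete proteins such as mammaglobins and mucins, while keratinocyte-type genes build the cornified envelope of skin and are normally low in them.

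Total counts were 22336675 to 26921113 in primed+treated aggregates and 15005070 to 15964169 in primed monolayers. Mitochondrial ribosomal RNA took 2.13 to 2.36% of the counts in primed+treated aggregates and 0.793 to 0.812% in primed monolayers. Of 12 markers of HER2-positive luminal epithelium, all but CDH1 averaged at least 67.1 CPM (read counts scaled by library size) in both groups, while CDH1, the E-cadherin gene, averaged 0.250 CPM in primed+treated aggregates and 0.153 CPM in primed monolayers. The summed level of the 12 was 17875 to 18938 CPM in primed+treated aggregates and 21778 to 24308 CPM in primed monolayers. Genes of other tissues were also counted in both groups. The kidney gene UMOD had 2.74, 22.8 and 20.8 CPM in primed+treated aggregates and 11.1, 9.20 and 3.86 CPM in primed monolayers, and the synaptic gene SYT1 had 12.7, 10.6 and 11.1 CPM against 5.82, 5.11 and 6.20 CPM. SYT1 also had 12.9, 13.1 and 11.4 CPM in untreated monolayers, where UMOD had no count, so SYT1 was not confined to libraries that hold UMOD. Summed brain markers, SYT1 included, reached 47.3 to 56.6 CPM in primed+treated aggregates and 32.1 to 39.2 CPM in primed monolayers, and 10 of the 11 tested brain markers rose and 1 fell. Summed kidney markers came to 125 to 152 CPM against 145 to 190.0 CPM, and summed endothelial markers to 32.9 to 36.6 CPM against 82.6 to 94.7 CPM. The endothelial sum rested mainly on CDH5, at a mean of 6.87 against 58.1 CPM, and ESAM, at 22.2 against 24.7 CPM. It therefore does not show which group held more of the other endothelial transcripts. On average, most of the kidney sum in both groups came from PODXL2, which was lower in primed+treated aggregates (log2 -0.40). PODXL2 also averaged 69.2 CPM in untreated monolayers, where UMOD had no count. The kidney sums therefore do not show which group held more of the other kidney transcripts. Of tested members, 2 of 14 kidney markers rose and 3 fell, 2 of 5 endothelial ones rose and 2 fell, 2 of 11 muscle ones rose, 2 of 11 mesenchymal ones rose and 1 fell, 1 of 8 melanocyte ones fell and 1 of 2 immune ones rose. The melanocyte gene TYRP1 and the mesenchymal gene POSTN, at 0 to 0.147 CPM in all 6 libraries, reached 5.70 to 31.9 CPM and 10.8 to 28.9 CPM in the 6 untreated libraries. The part of these transcripts in the results below was not tested.

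On the first 2 principal components of log2 CPM, primed+treated aggregates lay with the other aggregates on component 1, and primed monolayers lay apart from every other group on component 2. The 2 components held 40.6% and 27.1% of the variance.

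**Figure D1:**
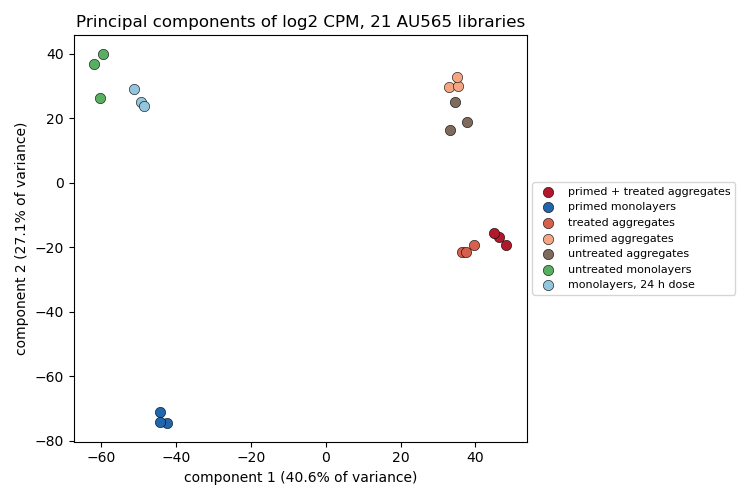
Principal components of log2 CPM over the 21 libraries, 1 point per library and 1 colour per group, with the share of variance on each axis. The 3 primed+treated aggregates sit beside the 3 treated aggregates, and the 3 primed monolayers sit at the bottom left, away from the other 18 libraries.

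Of the 15969 genes tested, 10212 (63.9%) differed at an adjusted p under 0.05 (edgeR's quasi-likelihood test, Benjamini-Hochberg). In primed+treated aggregates 5089 genes (31.9%) rose and 5123 (32.1%) fell, and the median log2 fold change of all genes was 0.02. These shares of all genes are the background for the counts of list members below. At least 2-fold rises numbered 1779 (11.1%), and at least 2-fold falls 1298 (8.13%). Among the 1298 genes with a fall of at least 2-fold, 819 (63.1%) had all 3 primed monolayers above each of the other 18 libraries of the series, against 15.3% of all genes tested. Among the 1779 genes with a rise of that size, 735 (41.3%) had all 3 primed monolayers below each of the other 18 libraries, against 11.5% of all genes. By the same measure primed+treated aggregates lay above all other libraries in 103 (5.79%) of the risen genes, against 1.71% of all genes. They lay below all other libraries in 86 (6.63%) of the fallen genes, against 1.48% of all genes. These counts, devised after the data were seen, describe where each group lies and carry no test. The risen and fallen genes were picked on these same libraries, so shares above those of all genes follow at least in part from that choice. Wherever values of both groups are given per library below, the 2 groups did not overlap, apart from ERBB2, INSR, CD274, SLC2A1 and CDC25B.

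In the untreated pair, 10229 genes (64.1%) differed, 5256 (32.9%) higher and 4973 (31.1%) lower in aggregates. The 2 comparisons shared 2726 rises, which are 53.6% of the rises in primed+treated aggregates and 51.9% of those in untreated aggregates. They shared 2658 falls, 51.9% and 53.4% of the falls in each. A further 822 genes rose in primed+treated aggregates and fell in untreated aggregates, and 1076 did the opposite. The difference between the responses, tested as a contrast of the 4 group means, was called for 8616 genes (54%), of which 4016 (25.1%) were more positive and 4600 (28.8%) more negative in the primed comparison. The parts of the earlier dose, the later dose and the time in culture in these differences cannot be told apart. Primed libraries of this comparison and untreated libraries carry different sets of transcripts of other tissues, as the TYRP1 and POSTN values show, and results on the untreated pair and on differences rest on both sets. MYH7, a heart muscle gene, reached 20.6 to 87.4 CPM in replicates 1 and 2 of both untreated groups. SNAP25, a synaptic gene of the brain list, came first among genes averaging at least 5 CPM in a group that rose here and fell in untreated aggregates, ranked by the smaller of their 2 changes (log2 1.33 and -1.67). It had 17.3, 11.8 and 12.9 CPM in primed+treated aggregates, 5.82, 6.51 and 4.36 CPM in primed monolayers, 0.0588, 0.153 and 0.178 CPM in untreated aggregates and 0.505, 0.507 and 0.277 CPM in untreated monolayers. Its difference of 3.00 on the log2 scale was called, and was not without the libraries that hold MYH7 (1.95, adjusted p = 0.208). Its fall in the untreated pair (adjusted p = 0.0173) did not pass without those libraries (log2 -0.63), without untreated aggregate replicate 1 (-1.35), without untreated monolayer replicate 2 (-1.50) or with limma voom (-1.55), at adjusted p of 0.704, 0.0775, 0.0670 and 0.0759. Next came AASS, an enzyme of lysine breakdown (log2 1.78 and -1.33), and the p53-induced gene TP53INP1 (log2 1.16 and -1.40).

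**Figure D2:**
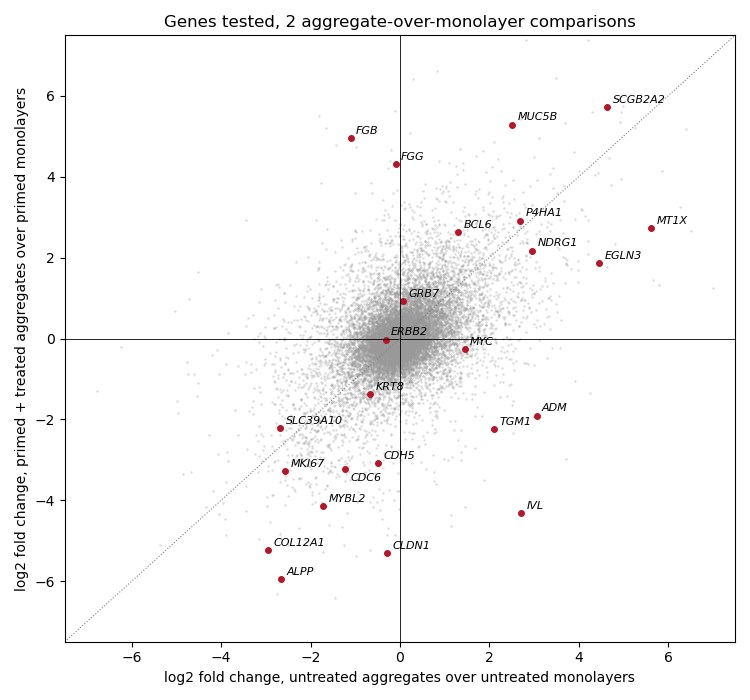
Log2 fold change of each gene in primed+treated aggregates over primed monolayers (y axis) against that in untreated aggregates over untreated monolayers (x axis), with 15965 genes drawn and 4 beyond the axes. Named genes are in red, the dotted line marks equal change, and FGB, ADM, TGM1 and IVL lie in the quadrants of opposite sign.

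Hypoxia-response genes were among the highest risers in primed+treated aggregates. Of 30 tested HIF targets, 25 rose, 1 fell and 4 did not pass the test, with a median log2 fold change of 1.19. In the untreated pair 27 of the 30 rose and none fell, with a median of 1.61. Promoter windows of these genes were read for the core of the hypoxia response element, ACGTG or GCGTG on either strand, in the 250 bases before and 50 after each RefSeq gene start (GRCh38.p14). At least 1 core was held by 21 of the 26 members with a window (80.8%), against 61.8% of the 12190 windows of all genes tested. Stretches upstream of the start are shown for the top riser, for the riser with the smallest p and for the member that fell, with the core in capitals.
CA9, chr9:35673868-35673927, plus strand: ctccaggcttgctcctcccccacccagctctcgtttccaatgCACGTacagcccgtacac
P4HA1, chr10:73096914-73096973, minus strand: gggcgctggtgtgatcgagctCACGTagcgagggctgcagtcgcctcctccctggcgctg
ADM, chr11:10304943-10305002, plus strand: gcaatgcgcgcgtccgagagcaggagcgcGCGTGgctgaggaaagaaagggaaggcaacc
The core stands in all 3, whichever way the gene moved. No core stands in the windows of EGLN3, P4HA2, PDK1 and MXI1, which also rose, or of RBCK1, which did not pass.

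CA9, the cell-surface carbonic anhydrase used as a hypoxia marker, had 8.75, 9.33 and 13.3 CPM in primed+treated aggregates and no count in any primed monolayer. It was at least 161-fold higher in primed+treated aggregates, with the bound set at 3 counts over the 3 monolayers (adjusted p = 1.04e-09). Untreated monolayers were not empty of it, at 1.12, 1.44 and 0.971 CPM, against 9.87, 13.1 and 11.2 CPM in untreated aggregates. PPFIA4, a liprin listed among HIF targets, stood at 25.9, 26.8 and 27.6 CPM in primed+treated aggregates and 0.548, 1.02 and 0.569 CPM in primed monolayers, a log2 fold change of 5.21 ± 0.20 (SE, adjusted p = 1.62e-21). Its rise in the untreated pair was 5.26. P4HA1, a collagen prolyl hydroxylase subunit, had 1007, 1088 and 1115 CPM in primed+treated aggregates against 134, 146 and 144 CPM in primed monolayers. That is a 7.56-fold rise (log2 2.92 ± 0.06, adjusted p = 1.77e-29), with the 2 groups far apart.

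NDRG1, a stress-responsive growth regulator, had 1373, 1394 and 1546 CPM in primed+treated aggregates and 334, 320.2 and 300.2 CPM in primed monolayers. It rose 4.52-fold (log2 2.18 ± 0.06), less than in the untreated pair, where the log2 fold change was 2.95 (difference -0.78, adjusted p = 1.84e-09). EGLN3, the prolyl hydroxylase that marks HIF for destruction and is itself a HIF target, showed 65.4, 68.5 and 75.2 CPM in primed+treated aggregates against 20.0, 16.7 and 20.7 CPM in primed monolayers. Its rise of 3.65-fold stood against 22.1-fold between untreated aggregates (215, 219.9 and 246 CPM) and untreated monolayers (11.1, 9.48 and 10.4 CPM), a difference of -2.60 ± 0.12 on the log2 scale (adjusted p = 1.03e-18). VEGFA, the main growth factor for blood vessels, had 255, 254 and 258 CPM in primed+treated aggregates and 112, 110.5 and 113 CPM in primed monolayers, and its log2 rise of 1.20 was not called different from the untreated one of 1.13 (difference 0.07 ± 0.09, adjusted p = 0.559, or 0.24 with adjusted p = 0.0458 without the libraries that hold MYH7). ADM, the vasodilator adrenomedullin, went the other way. It had 12.4, 11.1 and 10.1 CPM in primed+treated aggregates and 42.3, 43.0 and 40.3 CPM in primed monolayers (log2 -1.90 ± 0.14, adjusted p = 1.72e-11), whereas untreated aggregates had 69.3, 82.7 and 76.9 CPM and untreated monolayers 9.32, 8.70 and 9.52 CPM. The 4 members that did not pass were ANGPTL4, INSIG2, RBCK1 and SLC2A1. SLC2A1, the main glucose importer, was added after its values were seen and had 216, 206 and 209.6 CPM in primed+treated aggregates and 236, 242 and 216 CPM in primed monolayers (adjusted p = 0.111, or 0.0467 without primed monolayer replicate 3 and 0.0406 with only the 2 groups fitted), while it rose by 1.20 on the log2 scale in untreated aggregates.

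**Figure D3:**
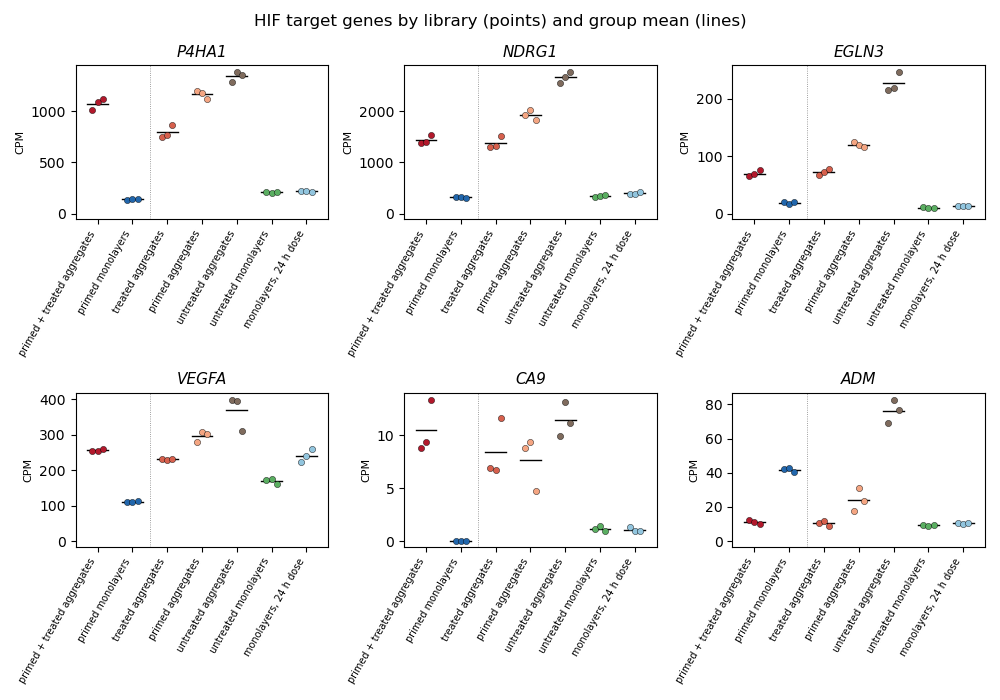
Level in CPM (y axis) of 6 HIF targets in each library (points) of the 7 groups, with lines at group means and the 2 compared groups left of the dotted line. P4HA1, NDRG1, EGLN3, VEGFA and CA9 are higher in all 3 primed+treated aggregates than in all 3 primed monolayers, and ADM is lower.

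Glycolysis moved less evenly. Of 21 tested glycolytic genes, 13 rose, 3 fell and 5 did not pass, with a median of 0.26, against 18 rises, 1 fall and a median of 0.84 in the untreated pair. The difference between the 2 responses was called negative for 14 of the 21 and positive for 4. ALDOC, an aldolase, had 113, 112 and 108 CPM in primed+treated aggregates and 24.7, 22.0 and 22.3 CPM in primed monolayers (log2 2.28 ± 0.06). PGK1, the phosphoglycerate kinase that makes ATP, was also the most abundant protein-coding gene to rise at least 2-fold, with 1787, 1815 and 1834 CPM against 883, 837 and 849.5 CPM. PFKL and PKM, the liver-type phosphofructokinase and a pyruvate kinase, fell, with log2 fold changes of -0.39 and -0.21 (adjusted p = 6.27e-07 and 0.00205), and both rose by 0.52 in untreated aggregates. Of 28 nuclear genes of the respiratory chain, 22 fell and none rose. Cytochrome c, CYCS, had 212, 225 and 220.3 CPM in primed+treated aggregates and 468, 457 and 480.3 CPM in primed monolayers. Among 15 genes of mitochondrial DNA, 5 rose and 5 fell, near the shares of all genes tested (31.9% and 32.1%). The ribosomal RNA RNR2 was 3.05-fold higher at 20374, 20020.0 and 18163 CPM against 6396, 6382 and 6448 CPM, while the complex I subunit ND2 was lower (log2 -0.39). The nuclear RNAs MALAT1 and NEAT1, the other most abundant risers, increased 3.46-fold and 2.38-fold, and MALAT1 had 4266, 4363 and 4188 CPM in primed+treated aggregates and 1238, 1177 and 1291 CPM in primed monolayers. MALAT1, NEAT1 and the share of mitochondrial ribosomal RNA thus differed between the groups, and their part in the other results was not tested.

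Proliferation genes fell, with 1 exception among the 64 of these lists. All 32 tested DNA replication genes fell, with a median log2 fold change of -1.95, and 31 of 32 mitosis genes fell, with a median of -2.55. Fewer cycling cells and less of these RNAs per cell cannot be told apart in bulk RNA. MKI67, which encodes the proliferation antigen Ki-67, had 28.9, 31.4 and 32.2 CPM in primed+treated aggregates against 276, 299 and 329 CPM in primed monolayers. This was 9.75-fold lower (log2 -3.29 ± 0.10, adjusted p = 3.99e-17). MYBL2 and FOXM1, transcription factors of the S and G2 phases, had 11.8, 11.7 and 11.3 CPM and 11.3, 10.7 and 13.5 CPM in primed+treated aggregates. In primed monolayers they had 216, 213 and 190.1 CPM and 113, 111 and 114 CPM, which makes log2 fold changes of -4.15 ± 0.09 and -3.25 ± 0.08. CDC25B, the phosphatase that starts mitosis, was the 1 mitosis gene that did not pass, at 164, 172 and 174 CPM against 185, 169 and 167 CPM (adjusted p = 0.644, named for that after its values were seen).

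The cell cycle homology region, TTTGAA on either strand, is the promoter element through which mitosis genes are repressed in resting cells. It was held by 16 of the 26 mitosis genes with a window (61.5%), against 10.2% of all windows. The stretch before the start of MKI67 is shown because it holds the element at 2 places, in capitals.
MKI67, chr10:128126424-128126483, minus strand: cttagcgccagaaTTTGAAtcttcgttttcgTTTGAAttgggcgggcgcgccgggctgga
MYBL2, which fell more, has no TTTGAA in its window.

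CDC6, which loads the replicative helicase, had 51.1, 53.7 and 52.7 CPM in primed+treated aggregates and 493, 486 and 496 CPM in primed monolayers (log2 -3.23 ± 0.07, adjusted p = 2.03e-26). FEN1, the flap nuclease of lagging-strand synthesis, had 21, 20.2 and 19.7 CPM against 110.0, 109 and 111 CPM. RRM2, the ribonucleotide reductase subunit that makes deoxynucleotides, fell the most of the replication list and is named for that after its values were seen, at 9.78, 12.7 and 13.7 CPM against 205, 189 and 206 CPM. All 32 replication genes and 25 of the 32 mitosis genes were higher in all 3 primed monolayers than in every other library of the series, untreated monolayers included. CDC6 showed this, with 226, 227 and 250.2 CPM in untreated monolayers and 89.4, 95.5 and 115 CPM in untreated aggregates. Its fall in the untreated pair was -1.23, and the difference of -1.99 ± 0.10 was called (adjusted p = 4.13e-17). Over the replication list 30 of 32 fell in untreated aggregates and the median was -0.75, with 29 of the 32 differences called negative.

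Of 22 G1 cyclins, CDK inhibitors and E2F factors, 15 fell and 4 rose. E2F1, which turns on replication genes, had 5.43, 5.34 and 6.37 CPM in primed+treated aggregates and 57.4, 62.4 and 55.9 CPM in primed monolayers, and E2F7, an E2F repressor, had 1.39, 1.39 and 1.55 CPM against 18.7, 21.9 and 22.6 CPM. CCND1, the cyclin D1 gene downstream of HER2, had 284, 287 and 293 CPM in primed+treated aggregates and 482, 489.5 and 499.6 CPM in primed monolayers (log2 -0.77 ± 0.05, adjusted p = 1.43e-16). It did not pass the test in the untreated pair (log2 0.07, adjusted p = 0.203). The risers include inhibitors of the cycle: CDKN1B, which encodes p27, had 98.6, 106 and 96.3 CPM in primed+treated aggregates against 66.6, 72.3 and 76.3 CPM in primed monolayers, and RBL2, a pocket protein of resting cells, had 146, 154 and 149.9 CPM against 81.7, 81.2 and 85.9 CPM. CDKN1C, encoding p57 and named after its values were seen, had 2.29, 1.51 and 1.36 CPM against 0.274, 0.192 and 0.190 CPM. MYC itself was slightly lower, at 211, 219.9 and 217 CPM in primed+treated aggregates and 272, 256 and 243 CPM in primed monolayers (log2 -0.25 ± 0.05), whereas it rose by 1.45 in untreated aggregates, a called difference of -1.70 (adjusted p = 1.37e-18). Of 26 genes of MYC response and ribosome biogenesis, 19 fell and 3 rose here, against 2 falls and 18 rises in the untreated pair. NOLC1, a nucleolar phosphoprotein, had a log2 fold change of -0.87, and NOP56, a core protein of box C/D particles, one of -0.74. Ribosomal protein genes moved little, with 15 of 30 higher, 3 lower and a median of 0.16. Of 20 replication-dependent histone genes, whose transcripts lack poly(A) tails, 7 rose and 2 fell. H1-2 had 22.9, 21.6 and 23.5 CPM in primed+treated aggregates and 9.11, 8.43 and 9.36 CPM in primed monolayers.

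The gene of the receptor that trastuzumab binds did not pass the test. ERBB2 had 8407, 7842 and 8345 CPM in primed+treated aggregates and 8633, 8416 and 8009 CPM in primed monolayers, with overlapping groups and a log2 difference of -0.03 ± 0.05 (adjusted p = 0.674). Untreated aggregates were lower than untreated monolayers, with a log2 fold change of -0.32 (difference 0.29, adjusted p = 0.00111). GRB7, an adaptor of HER2 signalling that lies beside ERBB2 in the amplicon on chromosome 17, had 1470.0, 1388 and 1385 CPM in primed+treated aggregates and 779.7, 751 and 715 CPM in primed monolayers. It rose 1.89-fold (log2 0.92 ± 0.05, adjusted p = 1.02e-16), and was 1294 CPM on average in treated aggregates, 1307 CPM in primed aggregates, 1369.9 CPM in monolayers dosed for 24 h, 778 CPM in untreated aggregates and 742 CPM in untreated monolayers. Of 14 amplicon genes, 5 rose and 5 fell, against 31.9% and 32.1% of all genes tested. PPP1R1B, the phosphatase inhibitor DARPP-32, rose by 2.60, while PSMD3, a proteasome subunit, and CDK12, a transcriptional kinase, fell, with log2 fold changes of -0.70 and -0.61.

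Among 19 HER family receptors, ligands and adaptors, 9 rose and 3 fell. ERBB3, the kinase-impaired partner of HER2, had 536, 506 and 504 CPM in primed+treated aggregates and 439.6, 447 and 455 CPM in primed monolayers (log2 0.20 ± 0.05, adjusted p = 0.000625). EGFR showed 243, 264 and 256 CPM against 199.7, 231 and 226 CPM, a log2 fold change of 0.22 where the untreated pair gave 1.86 (difference -1.64, adjusted p = 4.13e-17). Its ligands moved in both directions. EGF had 122, 129 and 138 CPM in primed+treated aggregates and 49.3, 49.0 and 51.9 CPM in primed monolayers (log2 1.38 ± 0.06), HBEGF, added after its values were seen, had 4.31, 3.53 and 6.70 CPM against 1.37, 2.04 and 1.58 CPM, and BTC, betacellulin, had 1.84, 1.47 and 2.13 CPM against 2.88, 4.41 and 4.74 CPM. GRB2, the adaptor that links receptors to RAS, was lower, at 79.5, 77.9 and 73.8 CPM in primed+treated aggregates and 96.8, 101 and 91.8 CPM in primed monolayers (log2 -0.32).

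Feedback genes of the MAPK pathway, which report its activity, were mostly higher. Of 25, 16 rose and 6 fell, with a median of 0.54, against 17, 4 and 0.82 in the untreated pair. SPRY4, a Sprouty feedback inhibitor, had 70.1, 65.0 and 78.3 CPM in primed+treated aggregates and 45.4, 44.3 and 45.4 CPM in primed monolayers (log2 0.66 ± 0.06). ETV4, an ETS factor induced by ERK, had 57.9, 53.9 and 57.1 CPM against 18.8, 15.3 and 19.0 CPM, and FOS, an immediate early gene, had 21.7, 20.4 and 21 CPM against 5.27, 6.64 and 4.68 CPM. Both also rose in untreated aggregates, by 3.11 and 3.99, and the difference was called negative for both (adjusted p = 2.26e-11 and 5.74e-11). DUSP6, the ERK phosphatase, was added after its values were seen and had 18.3, 18.9 and 20.4 CPM in primed+treated aggregates and 3.49, 2.87 and 3.04 CPM in primed monolayers. DUSP7, a relative of DUSP6, and CCND1 were among the members that fell.

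Genes induced by FOXO factors when PI3K signalling is low rose in part, with 15 of 24 higher and 5 lower. BCL6, a transcriptional repressor, had 140.3, 128 and 146 CPM in primed+treated aggregates and 22.4, 22.2 and 22.6 CPM in primed monolayers (log2 2.63 ± 0.08). Its log2 fold change in the untreated pair was 1.31 (difference 1.31, adjusted p = 9.57e-13). The pseudokinase gene TRIB1 had 135, 134 and 135 CPM against 59.6, 63.2 and 58.8 CPM. The insulin receptor substrates parted. IRS1 had 13.8, 14 and 12.8 CPM in primed+treated aggregates and 31.4, 31.0 and 29.5 CPM in primed monolayers (log2 -1.18), while IRS2, added after its values were seen, had 7.09, 6.64 and 6.29 CPM against 0.342, 0.511 and 1.01 CPM (log2 3.40). INSR, the insulin receptor, did not pass the test, at 37.7, 35.8 and 33.7 CPM against 32.4, 34.5 and 31.1 CPM (adjusted p = 0.161, or 0.0222 among genes averaging at least 10 CPM).

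Secretory genes of luminal breast cells held several of the largest rises. All 19 tested members of the luminal and secretory list changed, 15 up and 4 down, and the median log2 fold change of 1.23 was the highest of the 37 lists. SCGB2A2, mammaglobin A, had 940.3, 839 and 944 CPM in primed+treated aggregates and 17.5, 16.1 and 17.5 CPM in primed monolayers. That 53.2-fold rise (log2 5.73 ± 0.13, adjusted p = 3.85e-18) exceeded the 25.0-fold of the untreated pair (difference 1.09, adjusted p = 1.41e-05). Its partner gene SCGB1D2, lipophilin B and also on chromosome 11, had 72.2, 60.7 and 73.9 CPM against 1.10, 0.639 and 2.09 CPM. The gel-forming mucin MUC5B stood at 146, 138 and 170.0 CPM in primed+treated aggregates and 3.84, 4.73 and 3.04 CPM in primed monolayers, against 269, 290.4 and 363 CPM in untreated aggregates and 52.7, 48.8 and 60.1 CPM in untreated monolayers. Both groups of the primed comparison were thus below their untreated counterparts, and the larger fold (log2 5.29 against 2.51) went with the low monolayer level. The membrane mucin MUC1 had 431, 378 and 381 CPM in primed+treated aggregates and 110.2, 110.0 and 98.8 CPM in primed monolayers. AZGP1, a secreted glycoprotein of luminal and apocrine cells, had 896, 832 and 951 CPM against 269.7, 249 and 239 CPM, and PIP, prolactin-induced protein, named after its values were seen, had 29.4, 22.8 and 26.7 CPM against 2.26, 1.66 and 1.64 CPM. GATA3 and ESR1, the luminal transcription factors, were lower at low levels, with GATA3 at 3.10, 2.98 and 4.53 CPM in primed+treated aggregates and 8.01, 9.96 and 7.59 CPM in primed monolayers. The lipase gene CEL, which has a pseudogene of near-identical sequence, had 21.3, 20.3 and 19.1 CPM against 0.479, 0.383 and 0.379 CPM.

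Fibrinogen genes, which encode the 3 chains of the clotting protein and are normally made in liver, ranked next to CA9 among positive differences between the 2 comparisons. FGA, FGB and FGG all lie on chromosome 4. FGB had 153, 146 and 141 CPM in primed+treated aggregates and 4.86, 5.17 and 4.11 CPM in primed monolayers (log2 4.96 ± 0.16, adjusted p = 2.87e-15). FGG had 285, 289 and 300.0 CPM against 15.5, 13.9 and 14.4 CPM, and FGA had 8.35, 7.02 and 7.25 CPM against 0.137, 0.319 and 0.190 CPM. In the untreated pair FGB and FGA were lower in aggregates, with log2 fold changes of -1.10 and -0.88, and FGG did not pass (log2 -0.10, adjusted p = 0.356). Without untreated aggregate replicate 3 the fall of FGG passed (log2 -0.26, adjusted p = 0.000584), and without the libraries that hold MYH7 that of FGA did not (log2 -0.94, adjusted p = 0.0995), with 1 library per untreated group left. The differences were 6.06 ± 0.20, 5.96 ± 0.43 and 4.42 ± 0.15 for FGB, FGA and FGG (adjusted p = 1.72e-14, 1.33e-13 and 6.47e-16). Mean FGB was 171 CPM in treated aggregates, 32.0 CPM in primed aggregates, 137 CPM in monolayers dosed for 24 h, 47.5 CPM in untreated aggregates and 102 CPM in untreated monolayers. Primed monolayers were thus the lowest of the 7 groups for FGB.

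**Figure D4:**
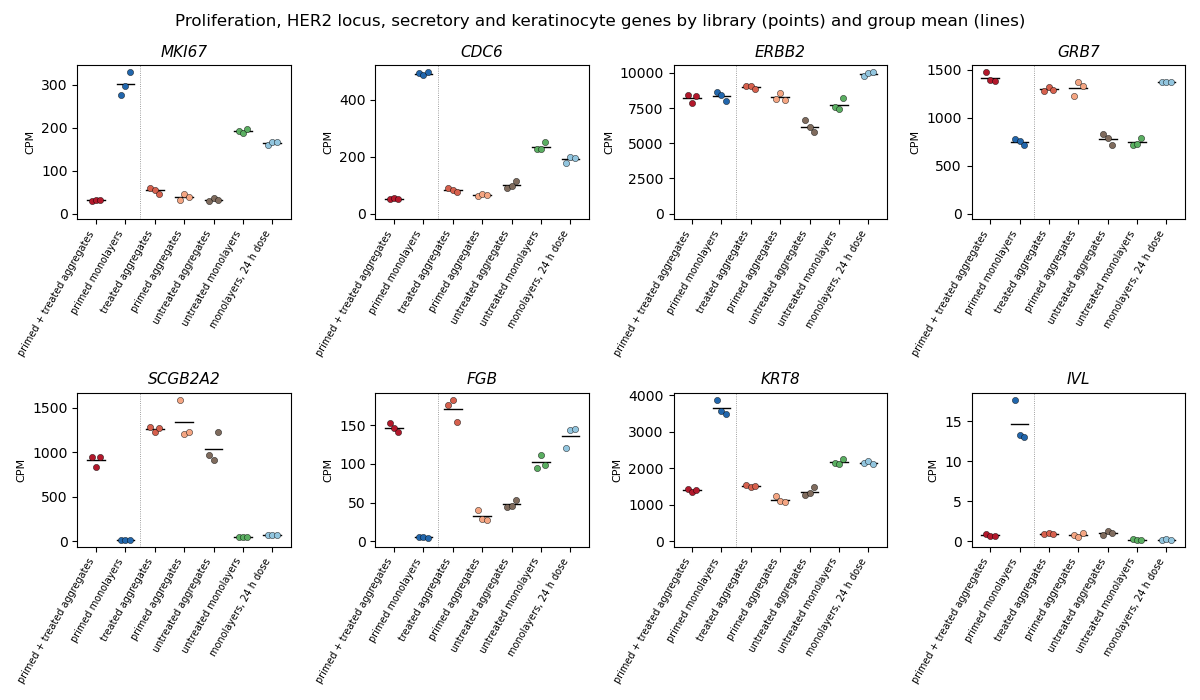
Level in CPM (y axis) of 8 genes in each library (points) of the 7 groups, with lines at group means and the 2 compared groups left of the dotted line. MKI67, CDC6, KRT8 and IVL are highest in the 3 primed monolayers, FGB and SCGB2A2 are lowest there, and ERBB2 overlaps between the 2 compared groups.

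Keratinocyte-type and inflammatory genes were lower in primed+treated aggregates, and most were at their highest in primed monolayers. Of 18 basal and cornified envelope genes, 15 fell and 1 rose, with a median of -1.54, whereas 8 rose and 5 fell in untreated aggregates. Primed monolayers exceeded every other library of the series for 14 of the 18. IVL, the envelope protein involucrin, had 0.853, 0.672 and 0.663 CPM in primed+treated aggregates and 17.7, 13.2 and 13 CPM in primed monolayers (log2 -4.32 ± 0.23, adjusted p = 4.38e-18). Untreated aggregates had 0.823, 1.23 and 1.07 CPM and untreated monolayers 0.225, 0.156 and 0.0924 CPM, so the signs were opposite and the difference was -7.04 ± 0.45 (adjusted p = 3.91e-15). TGM1, the transglutaminase that cross-links the envelope, had 27.6, 21.8 and 21.6 CPM in primed+treated aggregates and 115, 117 and 101 CPM in primed monolayers, and rose in the untreated pair (log2 -2.23 and 2.11). KRT16, a keratin of activated epidermis with near-identical pseudogenes, had 1.62, 1.51 and 1.10 CPM against 16.5, 16.7 and 14.8 CPM. SFN, 14-3-3 sigma, had 14.3, 12.3 and 13 CPM against 49.7, 48.1 and 40.9 CPM. The keratins of simple epithelia fell as well, with 7 of 9 lower and 1 higher. KRT8, the most abundant gene that fell at least 2-fold, had 1421, 1359 and 1415 CPM in primed+treated aggregates and 3876, 3576 and 3478 CPM in primed monolayers, and its partner KRT18 had 1171, 1066 and 1041 CPM against 2338, 2108 and 2063 CPM. Next in abundance among such falls came DHRS2, a short-chain dehydrogenase, at 748, 727 and 686 CPM in primed+treated aggregates and 2605, 2393 and 2462 CPM in primed monolayers.

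Of 13 NF-kB targets, 9 fell and none rose (median -0.55), while 7 rose and 2 fell in untreated aggregates (median 0.52). TNFAIP2, a gene induced by TNF, had 82.8, 76.7 and 79.6 CPM in primed+treated aggregates and 208, 209 and 201 CPM in primed monolayers. TNFAIP3, the feedback inhibitor A20, had 5.48, 5.76 and 4.31 CPM in primed+treated aggregates and 23.1, 23.6 and 19.2 CPM in primed monolayers (log2 -2.09 ± 0.14), and did not pass in the untreated pair (log2 0.14; difference -2.23, adjusted p = 1.03e-11). Of 19 cytokines and checkpoint ligands, 13 fell and 3 rose. The monocyte attractant CCL2 had 0.673, 0.546 and 0.258 CPM in primed+treated aggregates and 8.90, 8.05 and 9.42 CPM in primed monolayers, and was under 1 CPM in all 6 untreated libraries. IL18, an inflammasome cytokine, had 4.22, 5.13 and 3.75 CPM against 20.1, 19.5 and 19.2 CPM, and CCL28, a mucosal chemokine, had 0.628, 0.630 and 0.442 CPM against 9.38, 8.88 and 10.1 CPM. CD274, which encodes PD-L1, did not pass the test, at 1.84, 1.68 and 1.80 CPM against 2.33, 1.66 and 2.09 CPM (adjusted p = 0.522). The acute-phase genes SAA1 and SAA2, near-identical copies whose reads can be split between them, had 0.404, 0.504 and 0.405 CPM and 0.449, 0.336 and 0.110 CPM in primed+treated aggregates, against 15.5, 15.1 and 15.1 CPM and 7.88, 7.15 and 7.46 CPM in primed monolayers. Of 24 interferon-response genes, 7 rose and 8 fell, near the shares of all genes tested (31.9% and 32.1%). OAS1 and OAS3, sensors of double-stranded RNA, moved apart: OAS1 had 68.7, 70.2 and 69.4 CPM in primed+treated aggregates against 30.5, 27.5 and 26.9 CPM in primed monolayers, and OAS3 21.8, 18.7 and 21.9 CPM against 67.6, 69.3 and 69.4 CPM. In class I antigen presentation, 5 of 14 rose and 6 fell, against 31.9% and 32.1% of all genes tested. The peptide transporter gene TAP1 had 7.99, 8.74 and 6.66 CPM in primed+treated aggregates and 22.3, 23.1 and 22.3 CPM in primed monolayers.

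Surface and matrix genes with the largest falls shared the high primed monolayer level. CLDN1, a tight junction claudin, had 0.718, 0.966 and 0.442 CPM in primed+treated aggregates and 26.1, 28.6 and 29.0 CPM in primed monolayers (log2 -5.31 ± 0.27, adjusted p = 2.85e-15). It did not pass between untreated aggregates (2.35, 4.24 and 2.85 CPM) and untreated monolayers (4.04, 4.72 and 2.77 CPM), and the difference was -5.03 (adjusted p = 3.81e-11). COL12A1, a fibril-associated collagen, had 3.81, 4.62 and 4.20 CPM in primed+treated aggregates and 149, 160.0 and 168 CPM in primed monolayers, and F3, tissue factor, had 9.11, 7.39 and 8.47 CPM against 40.0, 38.8 and 38.6 CPM. The placental alkaline phosphatase gene ALPP, whose reads may be shared with its near-identical neighbour ALPG, showed the largest fall of those named, at 0.583, 0.546 and 0.368 CPM in primed+treated aggregates and 32.5, 32.8 and 27 CPM in primed monolayers. Next by size of fall, ANKRD2, a muscle ankyrin-repeat protein gene, had 0.0449, 0.378 and 0.258 CPM against 9.73, 8.94 and 10.9 CPM, and CCDC177, which ranked after CLDN1, had 0.0898, 0.0840 and 0.294 CPM against 7.33, 6.58 and 5.69 CPM. CSF2RB, the shared receptor chain for GM-CSF and related cytokines, had 0.180, 0.252 and 0.294 CPM in primed+treated aggregates and 8.84, 9.13 and 8.16 CPM in primed monolayers. Among the largest falls were also ACHE, acetylcholinesterase, at 1.30, 1.30 and 0.810 CPM against 35.8, 37.3 and 32.0 CPM, and the glycine acyltransferase gene GLYATL2, at 0.269, 0.210 and 0.368 CPM against 7.33, 6.32 and 8.98 CPM. CDH5, the endothelial cadherin, had 6.96, 7.35 and 6.29 CPM against 61.7, 58.1 and 54.4 CPM, and VWF, another endothelial marker, had 1.30, 1.26 and 1.33 CPM against 5.07, 4.53 and 4.05 CPM, while KDR, the VEGF receptor, was higher at 3.14, 3.87 and 3.42 CPM against 0.137, 0 and 0.316 CPM. Of 24 YAP, TAZ and actin genes, 15 fell and 6 rose, and TEAD1, the DNA-binding partner of YAP, had a log2 fold change of -1.07. Of 23 junction genes, 10 fell and 5 rose, against 32.1% and 31.9% of all genes tested. The desmosomal gene PKP2 rose, at 56.0, 57.3 and 62.1 CPM in primed+treated aggregates and 33.8, 34.7 and 33.2 CPM in primed monolayers. Of 29 integrin and basement membrane genes, 11 fell and 5 rose. HSPG2, which encodes perlecan, had 51.6, 52.2 and 53 CPM against 120.0, 125 and 123 CPM, and ITGA5, the fibronectin receptor subunit, had 27.4, 25.5 and 30.8 CPM against 12.3, 11.1 and 9.80 CPM. SOX9 and the Notch target HEY1 rose by 2.07 and 2.04 within a list of 20 Notch and stem cell genes of which 7 rose and 7 fell. Those counts were near the shares of all genes tested (31.9% and 32.1%). In the mesenchymal transition list 2 of 14 rose and 1 fell.

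Sterol synthesis genes mostly fell, and those of fatty acid synthesis moved in both directions. Of 24 cholesterol genes, 19 fell and 2 rose, with a median of -0.64, and FDPS, farnesyl diphosphate synthase, had 101, 103 and 106 CPM in primed+treated aggregates and 269, 266 and 256 CPM in primed monolayers. Its log2 fold change was -1.36 here and -1.34 in the untreated pair. Of 19 fatty acid synthesis genes, 10 fell and 5 rose. ELOVL6, a fatty acid elongase, had 13.8, 12.9 and 11.4 CPM against 67.2, 62.3 and 70.1 CPM, and ACLY, which makes cytosolic acetyl-CoA, had 553, 560.4 and 578 CPM against 982, 1014 and 973 CPM. In the list of lipid droplets and fatty acid oxidation 10 of 20 rose and 5 fell, among the risers ACADM, the medium-chain acyl-CoA dehydrogenase (log2 0.77).

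Stress programmes were mixed. Of 23 genes of ATF4 and amino acid supply, 18 rose and 2 fell. ATF4 had 524, 512 and 475 CPM in primed+treated aggregates and 258, 244 and 240.2 CPM in primed monolayers, and VLDLR, a lipoprotein receptor, had 37.4, 39.9 and 35.2 CPM against 4.11, 4.53 and 4.17 CPM. Heat shock chaperones went down, with 12 of 16 lower and none higher, as for HSPH1 at 115, 119 and 129.8 CPM against 216, 229 and 238 CPM. ER chaperone genes held 9 risers and 8 fallers of 20, NRF2 and glutathione genes 8 and 7 of 21, and p53 targets 9 and 4 of 19. Over all genes tested 31.9% rose and 32.1% fell, and the NRF2 and glutathione counts were near those shares. SLC7A11, the cystine importer, had 36.2, 38.7 and 37.7 CPM in primed+treated aggregates and 10.5, 13.7 and 14.4 CPM in primed monolayers. It was lower in untreated aggregates than in untreated monolayers (log2 -0.47; difference 2.01, adjusted p = 3.86e-13). Of 25 autophagy and lysosome genes, 14 rose and 9 fell. GAA, the lysosomal alpha-glucosidase, had 185, 179 and 173 CPM in primed+treated aggregates and 49.9, 49.9 and 43.6 CPM in primed monolayers. In the BCL2 family 9 of 16 rose and 4 fell, with the HIF-induced mitophagy genes BNIP3 and BNIP3L higher (log2 fold changes 1.19 and 1.49). Pro-death genes moved in both directions. BID, BAX and BAK1 were lower (log2 fold changes -1.06, -0.64 and -0.28), while BCL2L11, BBC3, PMAIP1, BMF and BOK were higher (0.93, 1.03, 1.01, 0.54 and 0.35). BAK1 and those 5 were named after their values were seen. The rise of BOK did not pass without primed+treated aggregate replicate 3 (0.25, adjusted p = 0.102) or primed monolayer replicate 3 (0.28, adjusted p = 0.0728).

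Of 11 metallothionein and metal handling genes, 6 rose and 4 fell. Metallothioneins bind zinc and copper and are induced through metal response elements, here TGCACNC or TGCGCNC on either strand. An element was held by 4 of the 7 list members with a window (57.1%), against 38.1% of all windows. The stretch before MT1X, the riser of the list with the smallest p, is shown with its 4 elements in capitals. MT2A, also on the list, holds 8 in its window.
MT1X, chr16:56682312-56682431, plus strand: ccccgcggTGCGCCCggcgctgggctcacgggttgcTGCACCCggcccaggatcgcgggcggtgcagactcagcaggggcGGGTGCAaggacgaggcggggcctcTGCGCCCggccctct
MT1X, whose reads may be shared with its close relatives, had 29.7, 25.7 and 25.1 CPM in primed+treated aggregates and 3.84, 4.60 and 3.67 CPM in primed monolayers (log2 2.73 ± 0.13). Its log2 rise in the untreated pair was 5.63, with 15.2, 14 and 14.9 CPM in untreated aggregates and 0.281, 0.390 and 0.185 CPM in untreated monolayers (difference -2.90, adjusted p = 9.75e-10). FTL, the ferritin light chain, rose by 1.23. TFRC, the transferrin receptor that imports iron, had 650.2, 684 and 777 CPM in primed+treated aggregates and 1411, 1456 and 1583 CPM in primed monolayers, and SLC39A10, a zinc importer, had 38.4, 41.3 and 46.8 CPM against 186, 191 and 214 CPM.

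**Figure D5:**
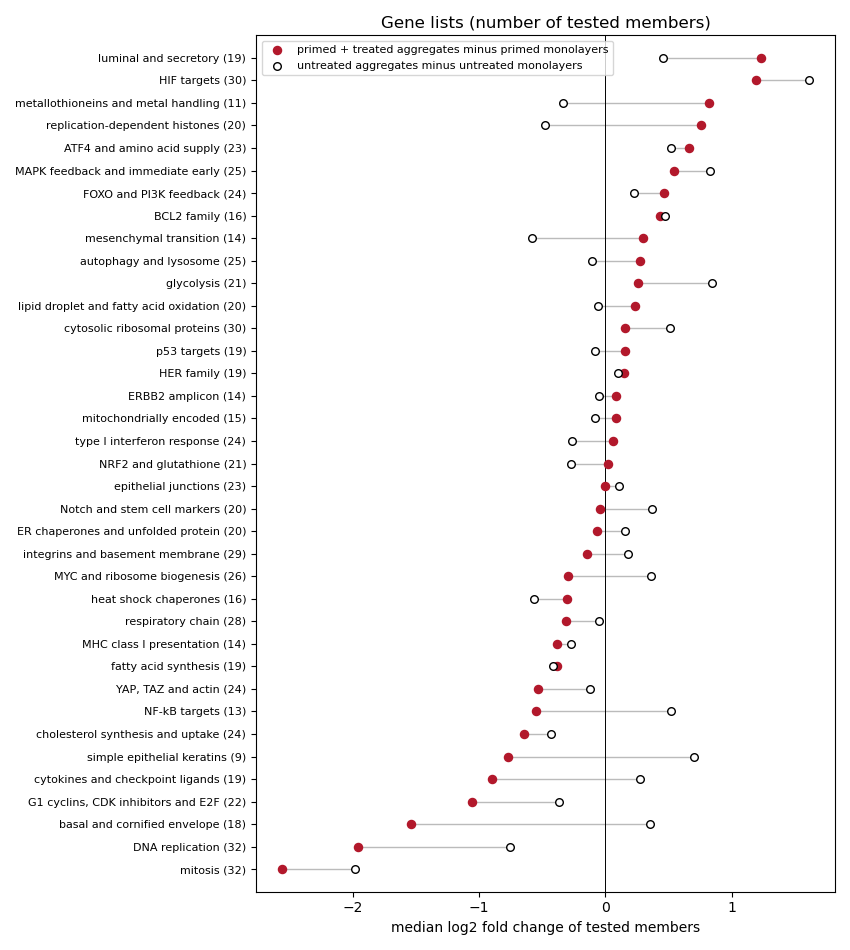
Median log2 fold change of the tested members of each of 37 gene lists (rows, member numbers in brackets) in primed+treated aggregates over primed monolayers (filled) and in untreated aggregates over untreated monolayers (open). Luminal, HIF and ATF4 lists are above 0 in both, replication and mitosis lists are lowest in both, and NF-kB, keratin, cornified envelope and ribosome biogenesis lists lie on opposite sides of 0.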

How the data were processed

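RNA was extracted with TRIzol and made into TruSeq libraries, per the labels' protocols. The authors deposited 1 table of read counts per gene for all 21 samples, and the submitters' processing notes name featureCounts, limma and hg38, with no versions. Strand and multi-mapping settings are not given in the sources used here, so genes with overlapping, antisense or near-identical copies are uncertain. Columns were matched to samples by title, and those of primed aggregates by the treatment protocol's name for that group.

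The deposited counts were fitted with edgeR 4.0.16 in R 4.3.3 (quasi-likelihood, robust, TMM scaling, 1 mean for each of 7 groups, 14 residual degrees of freedom). Of 16553 genes, 584 with 0.0116% of the counts were removed by edgeR's filter on low counts, and 15969 were tested. All tests were two-sided, and p-values were adjusted by Benjamini-Hochberg over all genes tested, with calls at 0.05. CPM values use TMM-scaled totals. Total counts ran from 15005070 to 26921113 per library, and the coefficient of variation between replicates beyond counting error was 5.98%. Replicates of each of the 4 compared groups differed by more than sampling noise (chi-square per degree of freedom 2.87 to 11.8 over genes with at least 50 counts in a pair), so each was counted as 1 sample. Bounds set at 3 counts cover counting error only.

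Gene identifiers were matched to RefSeq (GRCh38.p14) for 16373 of the 16553 genes, and 174 had no symbol. Named genes were the called genes with the largest rises, falls and differences between comparisons and the most abundant ones changed at least 2-fold (average of 5 CPM or more in a group, and no overlap between the 2 groups of the primed comparison for those ranked on it), the called members of each list with the smallest p in each direction, and 13 genes of HER2 signalling, growth, hypoxia and checkpoints set by name. Some genes that met this rule are not reported here. Genes added outside that rule are marked where they appear. The comparison, its members, the 37 gene lists, the 8 marker lists and the promoter motifs were chosen with earlier results of these data known, and lists are described by counts and medians with no test.

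Labels give the groups the same replicate numbers. Deviations from group means correlated at 0.369, -0.018 and 0.246 for the 3 same-numbered pairs of the primed comparison. In the untreated pair they correlated at 0.124, 0.247 and 0.316. Differently numbered libraries reached 0.160 in the primed comparison and 0.284 in the untreated pair (aggregate replicate 2 with monolayer replicate 1). Neither the labels nor these correlations settle a pairing, and the reported fit used none. Alternatives were DESeq2 1.42.0, limma voom (limma 3.58.1), DESeq2-type size factors, no filter, a filter at 10 CPM, only the compared groups, a replicate block, a test against a 1.5-fold change, each replicate left out, and the untreated results without the libraries that hold MYH7.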

Additional observations from a re-analysis of the deposited data

Results flagged for a closer look

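The change between aggregates and monolayers differed between the primed and the untreated comparison, by a test of the difference itself, for 8616 genes. Over all genes tested the share was 54%. Among them were 106 of the 127 genes described by fold or level in the primed comparison or the untreated pair, 36 with a positive and 70 with a negative difference. The 127 include genes named for large changes or differences, so their share cannot be set against that of all genes. Values below cover the 21 whose called difference was taken up as a result, and leave out others as large, such as ADM (-4.96). No value is given for CA9, whose difference was also called positive, since primed monolayers had no count of it. The values are log2 fold changes of primed+treated aggregates over primed monolayers minus those of untreated aggregates over untreated monolayers. The difference was positive for 10 of these 21. These were FGB (6.06), FGA (5.96), FGG (4.42), AASS (3.11), SNAP25 (3.00), TP53INP1 (2.57), SLC7A11 (2.01), BCL6 (1.31), SCGB2A2 (1.09) and ERBB2 (0.29). It was negative for 11, which were IVL (-7.04), CLDN1 (-5.03), MT1X (-2.90), EGLN3 (-2.60), TNFAIP3 (-2.23), FOS (-2.06), CDC6 (-1.99), MYC (-1.70), EGFR (-1.64), ETV4 (-1.45) and NDRG1 (-0.78). The difference of SNAP25 was not called without the libraries that hold MYH7 (1.95, adjusted p = 0.208). TYRP1 and POSTN, transcripts of other tissues, reached at least 5.70 CPM in the untreated libraries and at most 0.147 CPM in those of the primed comparison, and their part in these differences was not tested. Groups of 3 libraries are too small for a check of single libraries that stand apart.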

How the results depend on the processing

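Counts of called genes moved by over 1.5 times under 2 alternatives. Against a change of 1.5-fold, 1931 genes were higher and 1715 lower in the primed comparison, 1947 and 1558 in the untreated pair, and 1263 and 1650 in the difference. Among genes averaging at least 10 CPM, where fewer genes were tested, changes of at least 2-fold numbered 515 higher and 558 lower, 574 and 439, and 441 and 641 in the same order of comparisons. Leaving out each replicate gave 4654 to 4839 higher and 4835 to 4998 lower genes in the primed comparison (1714 to 1748 and 1276 to 1345 at 2-fold), 4893 to 5094 and 4662 to 4876 in the untreated pair, and 3754 to 3966 and 4330 to 4519 in the difference. With the replicate number as a block, 5070 genes were higher and 5102 lower in the primed comparison, and the block changed no call of a named gene in any comparison. DESeq2 called 5018 and 5027. Of 2608 values of named genes under alternatives, 2568 kept direction and call, 28 lost the call (20 of them against a 1.5-fold change), 5 gained it and 7 changed sign. Those 7 were called in neither fit, and the cause was not tested. At 10 CPM, CDC25B was 0.043 and ERBB2 0.048 on the log2 scale. With each replicate left out, CDC25B ran from -0.064 to 0.014 and ERBB2 from -0.061 to 0.0025. In the untreated pair without the libraries that hold MYH7, which leaves 1 library per group assumed to vary like the others, FGG was 0.21. With each replicate left out, FGG in the untreated pair ran from -0.26 to 0.017 and the VEGFA difference from -0.041 to 0.13. INSR passed at 10 CPM (0.20). Of 37 list medians, 35 kept their sign, with NRF2 genes at -0.0093 to 0.043 and junction genes at -0.062 to 0.0057. At this depth CA9 had no count in primed monolayers, so its fold is a bound.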
